A study of Mus musculus with 42 samples.

Results

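The core circadian clock loop was examined through 10 genes chosen by gene symbol, out of 20018 gene symbols on an array of 55681 probes, with 1 probe for each of the 10. The activator genes were Arntl, Clock and Npas2, and the genes that act against them were Per1, Per2, Per3, Cry1, Cry2, Nr1d1 and Nr1d2. The animals were male Muta™Mouse, a transgenic strain carrying a lacZ reporter for mutation assays, about 11 weeks of age and housed singly under a light/dark cycle. For 28 days they received, by daily gavage, olive oil alone (vehicle, D0) or benzo(k)fluoranthene (BkF) in olive oil at 25 (D1), 50 (D2) or 100 (D3) mg/kg-bw/day. BkF is a polycyclic aromatic hydrocarbon, a class of compounds of which many activate the aryl hydrocarbon receptor (AhR). Lung, liver and forestomach were collected 72 hours after the last dose, and the clock hour of collection was not given in the sources used here. Transcripts of these genes vary with the hour, and its part in the differences between groups and between mice was not tested. From 15 mice, 42 arrays were obtained, with 4, 3, 4 and 4 mice at D0, D1, D2 and D3 in lung, 4, 2, 3 and 4 in liver and 4, 3, 4 and 3 in forestomach, and each replicate was a separate mouse. Each array compared tissue RNA (Cy5) with the same reference RNA, pooled from 11 mouse cell lines (Cy3), and all levels are given as log2 ratios of tissue over that reference.

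The molecular clock is a feedback loop of transcription that runs in nearly every cell with a period of about a day. The proteins BMAL1, encoded by Arntl, and CLOCK or its relative NPAS2 pair up and bind E-boxes in DNA, and so raise transcription of the Per, Cry and Nr1d genes. PER and CRY proteins then act back on that pair, whereas REV-ERB proteins, encoded by Nr1d1 and Nr1d2, repress Arntl at ROR elements. In peripheral tissues of the mouse the transcripts of Arntl and of its targets therefore peak in opposite phases. CLOCK and BMAL1 belong to the same family of PAS domain proteins as AhR and its partner ARNT, which bind dioxin response elements.

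The start-proximal promoters show where such elements lie in front of these genes. Of the 10 genes, 9 had an entry in the RefSeq promoter table of the GRCm38.p6 mouse build, and Per2 did not. The 250 bases before the start were searched on both strands for the E-box CACGTG, the D-box TTANGTAA (bound by DBP, TEF, HLF and NFIL3), the ROR element and the core of the dioxin response element, TNGCGTG. The promoters of 3 genes are shown in lower case, from 5′ to 3′ along the gene, with matches in capitals: Arntl (chromosome 7, chr7:113207215-113207464, plus strand) as the activator the results turn on, Per1 (chr11:69098699-69098948, plus strand) as an E-box gene, and Per3 (chr4:151044666-151044915, minus strand) as the D-box gene.
Arntl: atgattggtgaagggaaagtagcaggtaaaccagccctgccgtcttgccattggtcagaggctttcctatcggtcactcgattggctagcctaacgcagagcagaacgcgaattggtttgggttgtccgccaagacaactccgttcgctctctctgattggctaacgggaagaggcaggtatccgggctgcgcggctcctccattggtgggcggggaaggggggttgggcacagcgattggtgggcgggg
Per1: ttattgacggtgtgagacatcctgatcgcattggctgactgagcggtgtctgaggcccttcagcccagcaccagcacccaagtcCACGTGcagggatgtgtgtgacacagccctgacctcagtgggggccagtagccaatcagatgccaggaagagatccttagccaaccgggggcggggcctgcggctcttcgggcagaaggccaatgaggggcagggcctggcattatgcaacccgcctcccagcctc
Per3: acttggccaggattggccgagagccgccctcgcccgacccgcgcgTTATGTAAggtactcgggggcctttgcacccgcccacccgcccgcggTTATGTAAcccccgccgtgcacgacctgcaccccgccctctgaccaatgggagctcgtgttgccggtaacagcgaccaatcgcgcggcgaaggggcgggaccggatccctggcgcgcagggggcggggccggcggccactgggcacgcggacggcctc
The table lists 2 promoters each for Arntl and Per1, of which the first is shown, and 3 for Clock. The shown Per1 window held 1 E-box, 166 bases before the start, whereas that of the second Per1 promoter (chr11:69099902-69100151, plus strand) held none, and the Per3 window held 2 D-boxes, 205 and 158 bases before it. No searched motif was found in either Arntl window. Of the other promoters, that of Cry1 held an E-box and a dioxin response element core, 60 and 187 bases before the start, and that of Nr1d1 held a dioxin response element core 195 bases before it. Among all 32851 promoters of the table, an E-box was found in 6.02%, a D-box in 2.06%, a ROR element in 2.04% and the dioxin response element core in 4.1%. A match describes these letters only, and windows further from the start were not searched.

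Detection set which genes could be compared. Of the 10 genes, 10 were kept in lung, 9 in liver (without Cry1) and 7 in forestomach (without Npas2, Per3 and Cry1), the rule being a tissue signal well above background on at least 3, 2 and 3 arrays. Arntl, Clock, Per1, Cry2 and Nr1d1 were well above background on all 42 arrays. Cry1 was the dimmest, on 4 of 15 lung arrays and on 0 of 13 liver and 0 of 14 forestomach arrays. Npas2 was well above background on 8 lung, 2 liver and 0 forestomach arrays, and Per3 on 13, 8 and 1. No value of the 10 genes was saturated. The samples were bulk tissue, so fewer cells of a type and less RNA per cell cannot be told apart.

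The labelled tissues carried their defining markers, with mean marker log2 ratios of 5.93 to 6.97 for 6 lung genes in lung, 7.82 to 8.72 for 6 liver genes in liver and 3.14 to 4.63 for 6 squamous epithelium genes in forestomach. Markers of other tissues stood apart in some samples. The mean of 10 glandular stomach genes was 4.98 to 6.19 in 9 forestomachs, which thus carried transcripts of glandular stomach. In the other 5, of mice 1, 4, 11, 16 and 20, it was 0.46 to 1.55, or −5.17 to −4.09 log2 units from the forestomach median. That mean lay 3.38 above the lung median in the lung of mouse 7. Skeletal muscle genes lay 5.37 above the tissue median in the lung of mouse 12 and 4.62 above it in the liver of mouse 17. The lung of mouse 12 was also higher in squamous epithelium genes (by 3.49) and brown fat genes (by 2.31). Lung and forestomach arrays shared slides 1 to 4, and liver arrays were on slides 5 and 6 and were read with another version of the scanner software, so liver and slide cannot be told apart.

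Under vehicle, levels of several clock transcripts differed between tissues, about as often as those of other probes. By group mean, Per1 and Cry2, which act against the activators, were highest in lung, Clock in forestomach and Arntl, Nr1d1 and Nr1d2 in liver, although some of the last differences were not called or rested on single arrays. Cry2 was at 1.78 to 2.19 in the lungs of the 4 vehicle mice, at 0.40 to 1.00 in their livers and at 0.17 to 0.61 in their forestomachs. Per1 was at −0.41 to 0.92 in lung, at −2.32 to −0.86 in liver and at −1.26 to 0.03 in forestomach. The vehicle lungs and livers did not overlap for either gene.

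In limma contrasts of the vehicle groups (4 mice each, one fit over all 42 arrays, called at an adjusted p of 0.05 and 1.5-fold), 4 of 9 clock genes differed between lung and liver, where 48.5% of all probes tested did. Cry2 was higher in lung by 1.20 ± 0.19 (SE, adjusted p = 1.21e-06) and Per1 by 2.00 ± 0.44 (adjusted p = 0.000165), whereas Nr1d1 (difference −0.82, adjusted p = 0.0367) and Nr1d2 (−0.68, adjusted p = 0.0114) were lower in lung. The Nr1d1 and Nr1d2 calls depended on single arrays: without the liver array of mouse 4 the differences were −0.43 and −0.49, with limma adjusted p of 0.267 and 0.0796. The Nr1d1 call was also lost without liver mouse 1 (−0.77), lung mouse 1 (−0.85) or lung mouse 2 (−0.62), and the Nr1d2 call without lung mouse 2 (−0.55) or lung mouse 3 (−0.58). For Arntl the lung was lower too, but the difference of −0.71 was not called (limma adjusted p = 0.0512), except with the mouse as a block (limma adjusted p = 0.0341) or without liver mouse 4 (−0.96), lung mouse 2 (−0.85) or lung mouse 3 (−0.85). In each of vehicle mice 1 to 4 Arntl was lower in lung than in liver. The fit took the tissues of a mouse as separate samples, and the block used 1 correlation, 0.075, for all probes. The Per2 difference, 0.56, was called only without liver mouse 2 (0.88, limma adjusted p = 0.0197).

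Between lung and forestomach 4 of 7 clock genes were called, against 37.6% of all probes. Of the 4 vehicle forestomachs, those of mice 2 and 3 were high in glandular stomach markers and those of mice 1 and 4 low. The part of those markers in the tissue differences was not tested. Cry2 (1.51 ± 0.19, SE), Per1 (1.23 ± 0.44) and Per2 (1.14 ± 0.33) were higher in lung and Clock was lower there (−0.87 ± 0.18), with limma adjusted p of 3.59e-08, 0.0176, 0.00356 and 0.000164. The Per1 call was lost without forestomach mouse 1 (1.05), forestomach mouse 3 (1.05) or lung mouse 1 (1.09), and Nr1d1 (0.65) was called only without forestomach mouse 4 (0.86). Between liver and forestomach 4 of 7 were called, against 44.7% of all probes, with Arntl (1.1 ± 0.32), Nr1d1 (1.47 ± 0.34) and Nr1d2 (0.97 ± 0.24) higher in liver and Clock lower (−0.72 ± 0.18; limma adjusted p = 0.00357, 0.000413, 0.000583 and 0.00112). Without forestomach mouse 4 the Clock difference was −0.58, just under the 1.5-fold limit. The share of clock genes called was near that of all probes in each pair of tissues. For the dim genes only bounds could be given, and none reached 1.5-fold, the highest being Npas2 at least 1.19-fold higher in lung than in liver.

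**Figure D1:**
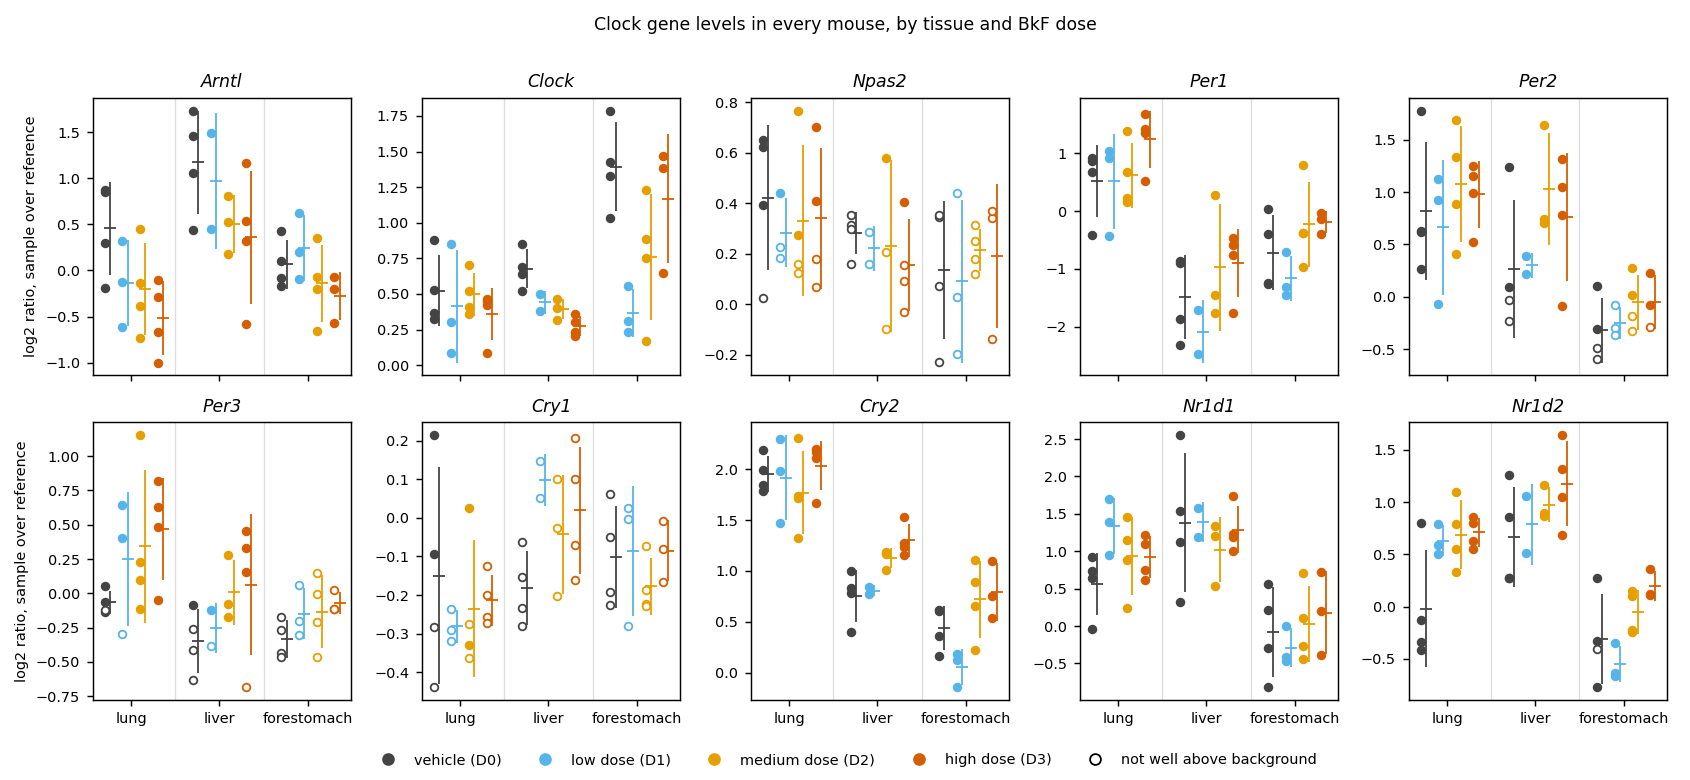
Log2 ratio of tissue over reference RNA (vertical axes, a separate scale for each gene) for the 10 clock genes in lung, liver and forestomach, with 1 point per mouse, coloured by dose group. Horizontal ticks are group means, vertical lines 1 SD, and open points were not well above background. Lung Cry2 lies at 1.32 to 2.31 and liver Per1 at −2.46 to 0.29.

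The dose groups allowed these levels to be compared with and without BkF. No clock gene was called at any dose in any tissue with limma (adjusted p of 0.05 and 1.5-fold against D0, the dose groups fitted together by tissue). The counts were 0 of 10 in lung at D1, D2 and D3, where 0%, 0.0153% and 0.0336% of all probes were called. They were 0 of 9 in liver, where 0%, 0.0427% and 0.0525% of all probes were called, and 0 of 7 in forestomach, where 0% were called at each dose. A linear dose trend was called for 0 clock genes in each tissue, beside 0.0367% of all probes in lung and 0% in liver and in forestomach. At an unadjusted limma p of 0.05, D3 differed from D0 for 2 of 10 clock genes in lung (8.02% of all probes), 3 of 9 in liver (7.8%) and 1 of 7 in forestomach (2.2%). The corresponding trend counts were 2 of 10 (8.48%), 4 of 9 (8.61%) and 1 of 7 (2.81%). On simple overlap of the D3 and D0 groups, 0 of 10 clock genes were separate in lung (5.28% of all probes), 2 of 9 in liver (5.97%) and 0 of 7 in forestomach (2.9%).

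Arntl, the activator without which the loop stops, was at 0.30, 0.87, 0.85 and −0.19 in the lungs of vehicle mice 1 to 4. It was at −0.12, −0.61 and 0.32 at D1, at −0.73, −0.39, −0.13 and 0.45 at D2 and at −0.29, −0.67, −0.11 and −1.0 at D3. Of the 4 D3 lungs, 3 lay below all vehicle lungs, but the groups overlapped through vehicle mouse 4. The D3 difference was −0.97 (SE 0.30, 95% interval −1.61 to −0.34, limma unadjusted p = 0.00536, adjusted p = 0.42), and the trend was −0.89 per 100 mg/kg-bw/day (adjusted p = 0.366).

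In liver, Arntl was at 1.05, 1.45, 1.73 and 0.44 under vehicle, at 0.45 and 1.49 at D1, at 0.53, 0.17 and 0.81 at D2 and at 0.32, 0.54, 1.16 and −0.58 at D3. The D3 range spanned most of the vehicle range and went below it, with mouse 20 lowest (difference −0.81, SE 0.36, limma adjusted p = 0.621). Without that mouse the difference was −0.50. In forestomach it was at 0.10, −0.08, 0.43 and −0.17 under vehicle, at 0.20, −0.09 and 0.62 at D1, at −0.07, −0.65, −0.20 and 0.36 at D2 and at −0.07, −0.20 and −0.56 at D3. There the groups overlapped, with 2 of 3 D3 mice below all vehicle mice (difference −0.35, SE 0.24, limma adjusted p = 1). That difference was −0.67 with the scanner's own ratio, −0.19 with the slide as a block, −0.20 without D3 mouse 20 and −0.23 without vehicle mouse 3.

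Clock, the histone acetyltransferase partner of BMAL1, separated vehicle from dosed livers. It was at 0.64, 0.85, 0.69 and 0.52 under vehicle, at 0.38 and 0.50 at D1, at 0.46, 0.40 and 0.32 at D2 and at 0.30, 0.21, 0.36 and 0.23 at D3. Every dosed liver lay below the lowest vehicle liver, and the D2 range overlapped those of D1 and D3. The share of all probes that separated vehicle from all dosed livers was not counted. The D3 difference was −0.40 (SE 0.09, 95% interval −0.60 to −0.21, limma unadjusted p = 0.000702, adjusted p = 0.204), which is below 1.5-fold in size. Liver markers moved with these values: all 6 were lower at D3 than at D0 (median −0.40, 5 at a limma unadjusted p under 0.05 and 0 called) and all 6 at D2 (median −0.27). Their mean level was 8.37 to 8.72 in vehicle livers, 7.88 to 8.34 at D2 and 7.82 to 8.34 at D3. At D1 all 6 were lower too (median −0.15), with mean levels of 8.495 in mouse 8 and 8.30 in mouse 9. Mouse 8 thus lay within the vehicle range of the markers, whereas its Clock of 0.38 lay below all vehicle livers. The part of the markers in the Clock difference was not tested. In lung, Clock was at 0.32, 0.37, 0.53 and 0.88 under vehicle and at 0.47, 0.09, 0.45 and 0.42 at D3, which overlapped.

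Clock in forestomach differed most at the low dose. It was at 1.03, 1.43, 1.33 and 1.79 under vehicle and at 0.31, 0.23 and 0.55 at D1, so the groups did not overlap (difference −1.03, SE 0.26, limma unadjusted p = 0.00182, adjusted p = 0.259). At D1 in forestomach, 1 of 7 clock genes and 12.1% of all probes had a limma unadjusted p under 0.05. The share of all probes without overlap was not counted at D1. Clock was at 1.23, 0.17, 0.89 and 0.76 at D2 and at 1.47, 0.65 and 1.39 at D3, with no order by dose. The glandular stomach markers moved with these values: Clock was at 1.03 to 1.79 in the 5 forestomachs low in those markers and at 0.17 to 1.43 in the other 9, which included all D1 mice. With the marker mean as a covariate the D1 difference was −0.80 (limma adjusted p = 0.754), and with array weights it was −1.15 (limma adjusted p = 0.00366), a setting in which 2250 probes were called at D1 in place of 0. Nr1d1 followed the markers too, at 0.20 to 0.73 in the 5 low forestomachs and at −0.82 to 0.11 in the other 9.

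Npas2, which can stand in for Clock, was dim in all tissues. Its lung values ran from 0.02 to 0.65 under vehicle and from 0.07 to 0.70 at D3. In liver it was not well above background on any vehicle array.

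Cry2, a repressor of the BMAL1 pair, was the clock gene with the lowest trend p in liver. Its liver values were 0.83, 0.79, 0.40 and 1.00 under vehicle, 0.85 and 0.77 at D1, 1.01, 1.17 and 1.19 at D2 and 1.28, 1.23, 1.16 and 1.53 at D3. The D2 and D3 livers lay above all vehicle livers, whereas the D1 livers lay within their range. The D3 difference was 0.54 (SE 0.13, 95% interval 0.27 to 0.82, limma unadjusted p = 9e-04, adjusted p = 0.219), and the trend was 0.57 per 100 mg/kg-bw/day (limma unadjusted p = 0.00028, adjusted p = 0.211). In the D2 and D3 livers the mean of the 6 liver markers lay below the vehicle range too (at most 8.34 against at least 8.37), as it did in D1 mouse 9 (8.30), whose Cry2 of 0.77 was within the vehicle range. The part of the markers in the Cry2 difference was not tested. Lung Cry2 was at 2.19, 1.99, 1.78 and 1.84 under vehicle and at 2.20, 2.11, 1.67 and 2.17 at D3. Those groups overlapped, with a D3 difference of 0.08 (95% interval −0.36 to 0.53). That difference ran from 0.03 to 0.20 with single arrays left out, and up to 0.16 under the other settings.

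Nr1d2, which encodes REV-ERBβ, was at −0.12, −0.42, −0.34 and 0.80 in vehicle lungs and at 0.80, 0.63, 0.55 and 0.85 in D3 lungs. The D1 lungs were at 0.59, 0.79 and 0.51 and the D2 lungs at 1.09, 0.33, 0.79 and 0.55. Every dosed lung lay above vehicle mice 1, 2 and 3, and vehicle mouse 4 was alone among the vehicle lungs in lying within the dosed range. The D3 difference was 0.73 (SE 0.23, 95% interval 0.24 to 1.22, limma unadjusted p = 0.00612, adjusted p = 0.423). The D3 differences in liver and forestomach were 0.51 (SE 0.24) and 0.50 (SE 0.21), with limma adjusted p of 0.645 and 1, and the forestomach value was 0.87 with the scanner's own ratio. Liver Nr1d2 was at 0.85, 0.27, 0.28 and 1.26 under vehicle and at 1.05, 1.32, 0.68 and 1.64 at D3, and forestomach Nr1d2 was at −0.40, −0.33, −0.77 and 0.27 under vehicle and at 0.36, 0.11 and 0.12 at D3. The groups overlapped in both tissues.

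Per1, the E-box gene that also responds quickly to hormones and feeding, was at 0.92, 0.67, −0.41 and 0.87 in vehicle lungs and at 1.35, 1.41, 0.52 and 1.67 in D3 lungs. In liver it was at −1.87, −0.89, −2.32 and −0.86 under vehicle and at −0.76, −0.59, −1.77 and −0.46 at D3. In forestomach it was at −1.26, −0.40, −1.25 and 0.03 under vehicle and at −0.03, −0.40 and −0.14 at D3. The D3 group overlapped the vehicle group in each tissue, and mouse 3 was lowest among the vehicle mice in lung and liver. The D3 differences were 0.72 (SE 0.39), 0.59 (SE 0.46) and 0.53 (SE 0.40), and the limma adjusted p was 0.672, 0.799 and 1. Without vehicle mouse 3 they were 0.42, 0.31 and 0.35, without vehicle mouse 1 the forestomach value was 0.35, and with the slide as a block it was 0.24.

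Among the other genes that act against the activators, Per3 had 3 of 4 D3 lungs above all vehicle lungs (−0.14 to 0.05 under vehicle, −0.05 to 0.82 at D3, difference 0.54, limma adjusted p = 0.636). Per2 differed at D3 by 0.16 in lung, 0.50 in liver and 0.27 in forestomach, with SE of 0.35, 0.35 and 0.20. With the scanner's own ratio these were 0.32, 1.12 and 0.59, and the Per3 differences were 1.01 in lung and 1.12 in liver, in place of 0.54 and 0.41. Without single vehicle mice, Per2 in lung ran up to 0.48 and in liver up to 0.82 (mouse 2 in both). Nr1d1, which encodes REV-ERBα, differed by 0.36 in lung, −0.09 in liver and 0.26 in forestomach, and its 3 D1 lungs, at 1.39, 1.69 and 0.95, lay above all vehicle lungs (−0.04 to 0.92, limma unadjusted p = 0.0148, adjusted p = 1). At D1 in lung, 2 of 10 clock genes and 1.76% of all probes had a limma unadjusted p under 0.05. The share of all probes without overlap was not counted there. Glandular stomach markers also differed in the D1 lungs, with 8 of 8 tested higher than in vehicle lungs (median difference 1.33, 4 at a limma unadjusted p under 0.05 and 0 called). Mice 7 and 8, with Nr1d1 at 1.39 and 1.69, lay 3.38 and 0.80 above the lung median in those markers. Mouse 9, with Nr1d1 at 0.95, lay at −0.02 from that median. The part of the markers in the difference was not tested. The D3 difference of Nr1d1 was 0.16 in lung without vehicle mouse 2, and 0.15 in forestomach with the glandular stomach markers as a covariate. Cry1 was not well above background on any D1 or D3 lung array, so it gave no fold.

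Set side by side, most activators were lower at D3 than at D0 and most of the genes that act against them were higher, by differences that were mostly small. Cry1 in lung and Npas2 in liver were left out of the D3 counts, the first since no D3 array and the second since no D0 array of that tissue was well above background for it. Some genes counted were dim in part of their groups. Lung Npas2 was well above background on 3 of 4 vehicle and 2 of 4 D3 arrays, liver Per3 on 1 of 4 and 3 of 4, liver Per2 on 2 of 4 and 4 of 4, and forestomach Per2 on 2 of 4 and 2 of 3. Lung Per3 and forestomach Nr1d2 were each dim on 1 of 4 vehicle arrays. The activators counted were lower in 3 of 3 in lung, 2 of 2 in liver and 2 of 2 in forestomach, with median differences of −0.17, −0.61 and −0.29. Of the Per, Cry and Nr1d genes, 6 of 6, 5 of 6 and 5 of 5 were higher, with medians of 0.45, 0.50 and 0.36. Several signs rested on 1 array or setting. Lung Npas2 was at 0.14 with the scanner's own ratio and at 0.0075 without D3 mouse 20, and lung Per2 was at −0.028 without vehicle mouse 4. Forestomach Clock was at 0.034 without D3 mouse 17, and forestomach Nr1d1 at −0.0098 without D3 mouse 20. Liver Nr1d1, the gene of the 6 that was lower, was at 0.30 without vehicle mouse 4 and at 0.0029 without D3 mouse 17. The medians over all probes were 0.004, −0.005 and 0.004. At D2 the activators were likewise lower (3 of 3, 2 of 2 and 2 of 2) and the genes that act against them higher in 5 of 7, 5 of 6 and 5 of 5. Lung Cry1 was counted at D2, being well above background on 2 of 4 arrays. At D1 the pattern did not hold throughout. The activators were lower in 3 of 3, 2 of 2 and 1 of 2. The genes that act against them were higher in 3 of 6 in lung, 5 of 6 in liver and 0 of 4 in forestomach (median −0.31). Lung Cry1, liver Npas2 and forestomach Per2 were left out at D1, as each was dim on every D1 array. The forestomach Per2 difference was 0.07. The genes of a loop vary together between mice, so these counts are not independent, and no single difference was called. In limma tests of whether the D3 difference itself differed between tissues, 0 of 9 clock genes were called for lung against liver (0.0153% of all probes), 0 of 7 for lung against forestomach (0.0122%) and 0 of 7 for liver against forestomach (0%). The Arntl difference in lung was lower than in liver by −0.16, with a 95% interval of −1.08 to 0.76. These tests took the tissues of a mouse as separate samples.

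**Figure D2:**
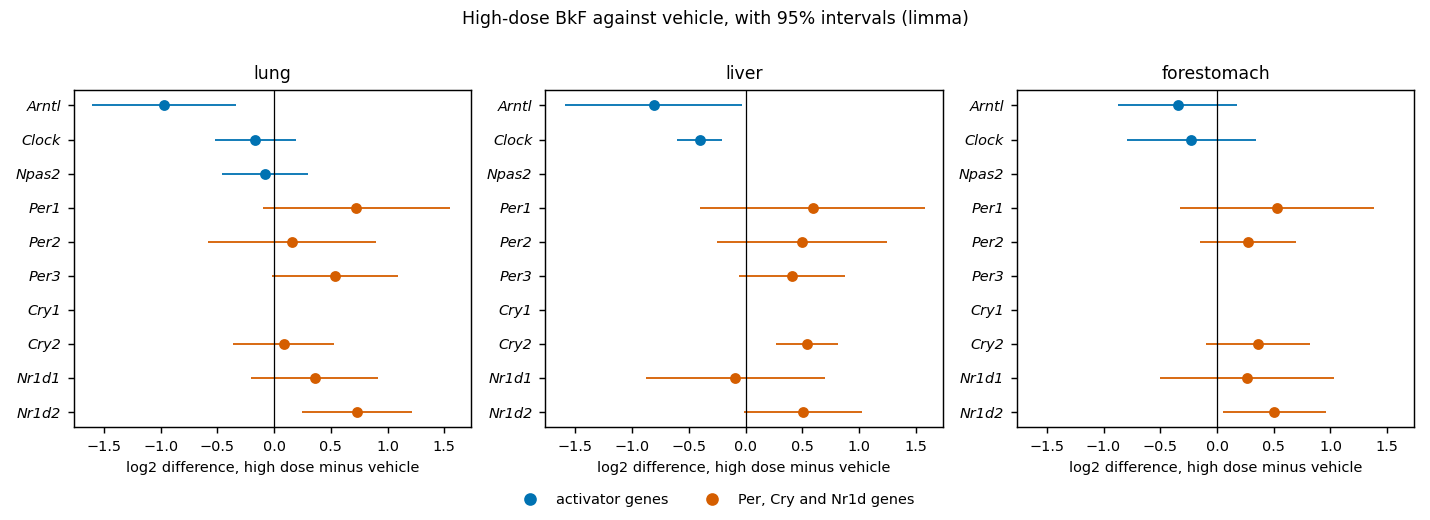
Difference in log2 ratio between D3 and D0 (horizontal axis) for each clock gene in lung, liver and forestomach, as points with 95% intervals from limma. Activator genes are blue and Per, Cry and Nr1d genes orange, and genes not kept in a tissue, or dim on every D0 or every D3 array (Cry1 in lung and Npas2 in liver), have no point. The point for Arntl lies left of 0 in each panel, at −0.97, −0.81 and −0.35, and the point for Nr1d2 lies right of 0 in each, at 0.73, 0.51 and 0.50.

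In the wider clock pathway no gene was called either, where at most 0.0525% of all probes were called at any dose in any tissue. At that share a count of 0 in a short list says little about the list. Of 13 further core clock genes, including the ROR activators, Bhlhe40, Ciart and the casein kinases, 11, 9 and 8 could be tested and 0 were called at D1, D2 or D3 in lung, liver or forestomach. At D3 the median difference of that list was −0.03 in lung, 0.12 in liver and 0.15 in forestomach. Bhlhe40, an E-box repressor, differed by −0.15, 0.39 and 0.34 in that order, and Ciart by −0.33 in lung. Of 6 clock output genes, 6 were tested in each tissue and 0 were called. Dbp, a D-box activator driven by the BMAL1 pair, was higher at D3 by 1.79 ± 0.51 (SE) in lung, 1.64 ± 0.73 in liver and 1.28 ± 0.43 in forestomach, with limma adjusted p of 0.397, 0.622 and 1. Nfil3, the D-box repressor that opposes it, was lower by differences of −0.59, −0.89 and −0.52.

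The AhR battery, the textbook targets of the receptor, was called in lung. Of 5 genes (Cyp1a1, Cyp1b1, Ahrr, Tiparp and Nqo1), 3 were called in lung at D2 and at D3 and 0 at D1, and 0 were called in liver or forestomach. Of all probes, 0.0153% and 0.0336% were called in lung at D2 and D3. Cyp1a1, which hydroxylates these hydrocarbons, was higher at D3 by 6.81 ± 0.75 (SE, limma adjusted p = 0.00341) in lung, by 5.26 ± 1.03 (adjusted p = 0.13) in liver and by 3.24 ± 0.85 (adjusted p = 1) in forestomach. Ahr and Arnt, the PAS partners, were not called in any tissue, and of 5 glucocorticoid responsive genes 0 were called. At the low shares of all probes called, these counts of 0 say little about those genes.

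Individual mice differed widely in some clock transcripts within a dose group and little in others. The residual SD of Per1 in liver was 0.77, above that of 99% of the probes tested there, and those of Nr1d1 (0.61), Arntl (0.60) and Per2 (0.58) lay at the 98, 97.9 and 97.7 percentiles. In lung, Per1 (0.62), Per2 (0.55) and Arntl (0.47) lay at the 96.8, 95.4 and 92.6 percentiles. Clock in liver was the least variable, with an SD of 0.10 at the 5.95 percentile. Cry2 and Npas2 in liver lay at the 45.1 and 56 percentiles and Cry1 in lung at 37.9. In forestomach the most variable clock gene was Per1 (0.57, at the 88.7 percentile), whereas Per2, Nr1d2 and Cry2 lay at 45.8, 52.4 and 52.7. These percentiles are descriptions and were given no test.

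Deviations of mice were often opposed between the arms of the loop. Each mouse was expressed as its deviation from the mean of its dose group, and pairs were counted over genes well above background on at least 50% of a tissue's arrays. Activators and genes that act against them correlated below 0 in 15 of 18 pairs in lung, 11 of 12 in liver and 5 of 8 in forestomach, where the same activators correlated below 0 with 47.8%, 49.6% and 47% of all other probes. Pairs within the Per, Cry and Nr1d genes correlated above 0 in 12 of 15, 11 of 15 and 6 of 6, beside 49.5%, 49.9% and 50% of other probes. The pairs share genes and mice, so they are not independent, and the counts were given no test. The lowest r of all these pairs was that of Arntl with Nr1d2 in liver, at −0.87. Mice 20, 4 and 8 had the lowest Arntl deviations there and the highest Nr1d2, and mice 19, 3 and 9 had the highest Arntl and lay among the 4 lowest in Nr1d2. Mice 8 and 9 were the only 2 livers at D1, so their deviations mirror each other.

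Arntl was tested against each of the other 9 genes in 3 tissues, in 27 relations with exact two-sided permutation within dose groups and Benjamini-Hochberg adjustment. Of these, 3 passed an adjusted p of 0.05. In liver (13 mice) Arntl ran against Nr1d2 (r = −0.87, rho = −0.84, exact permutation p = 0.00405, adjusted p = 0.0378) and against Cry2 (r = −0.78, rho = −0.76, exact permutation p = 0.0042, adjusted p = 0.0378). In forestomach (14 mice) it ran against Per1 (r = −0.83, rho = −0.79, exact permutation p = 0.00367, adjusted p = 0.0378). By Spearman's rho none of the 3 passed, at an adjusted exact permutation p of 0.0677 each. Over all probes the median r with Arntl was 0.01 in liver and 0.03 in forestomach, and an r as low was found for 0.125%, 0.948% and 0.0435% of probes.

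Leaving out the 2 mice farthest from the median Arntl gave r of −0.81 for Nr1d2 and −0.70 for Cry2 in liver and −0.69 for Per1 in forestomach. Within liver slides 5 and 6, r was −0.73 and −0.99 for Nr1d2 and −0.73 and −0.86 for Cry2. Removing the means of slides 1 to 4 gave −0.81 for Per1 in forestomach, and without the 5 forestomachs low in glandular stomach markers it was −0.94. When each mouse with an array in the tissue was left out in turn (13 in liver, 14 in forestomach), r stayed between −0.93 and −0.83, between −0.83 and −0.69 and between −0.89 and −0.74 for the 3 relations. The adjusted p was less steady, and each of the 3 relations passed in 1 of its repeats.

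Lung relations missed the adjusted threshold. Among 15 lungs, Arntl had r = −0.70 with Nr1d2 (exact permutation p = 0.00893, adjusted p = 0.0603), −0.68 with Per1 (adjusted exact permutation p = 0.0684) and 0.69 with Npas2, which was well above background in 8 of the lungs (adjusted exact permutation p = 0.0684). Liver Per1 stood at r = −0.68 (adjusted exact permutation p = 0.0684). Nr1d1 had r of −0.21, −0.43 and −0.18 with Arntl in lung, liver and forestomach, which became −0.67, −0.61 and −0.15 with slide means removed. Per2 had r of −0.27, −0.35 and −0.15.

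**Figure D3:**
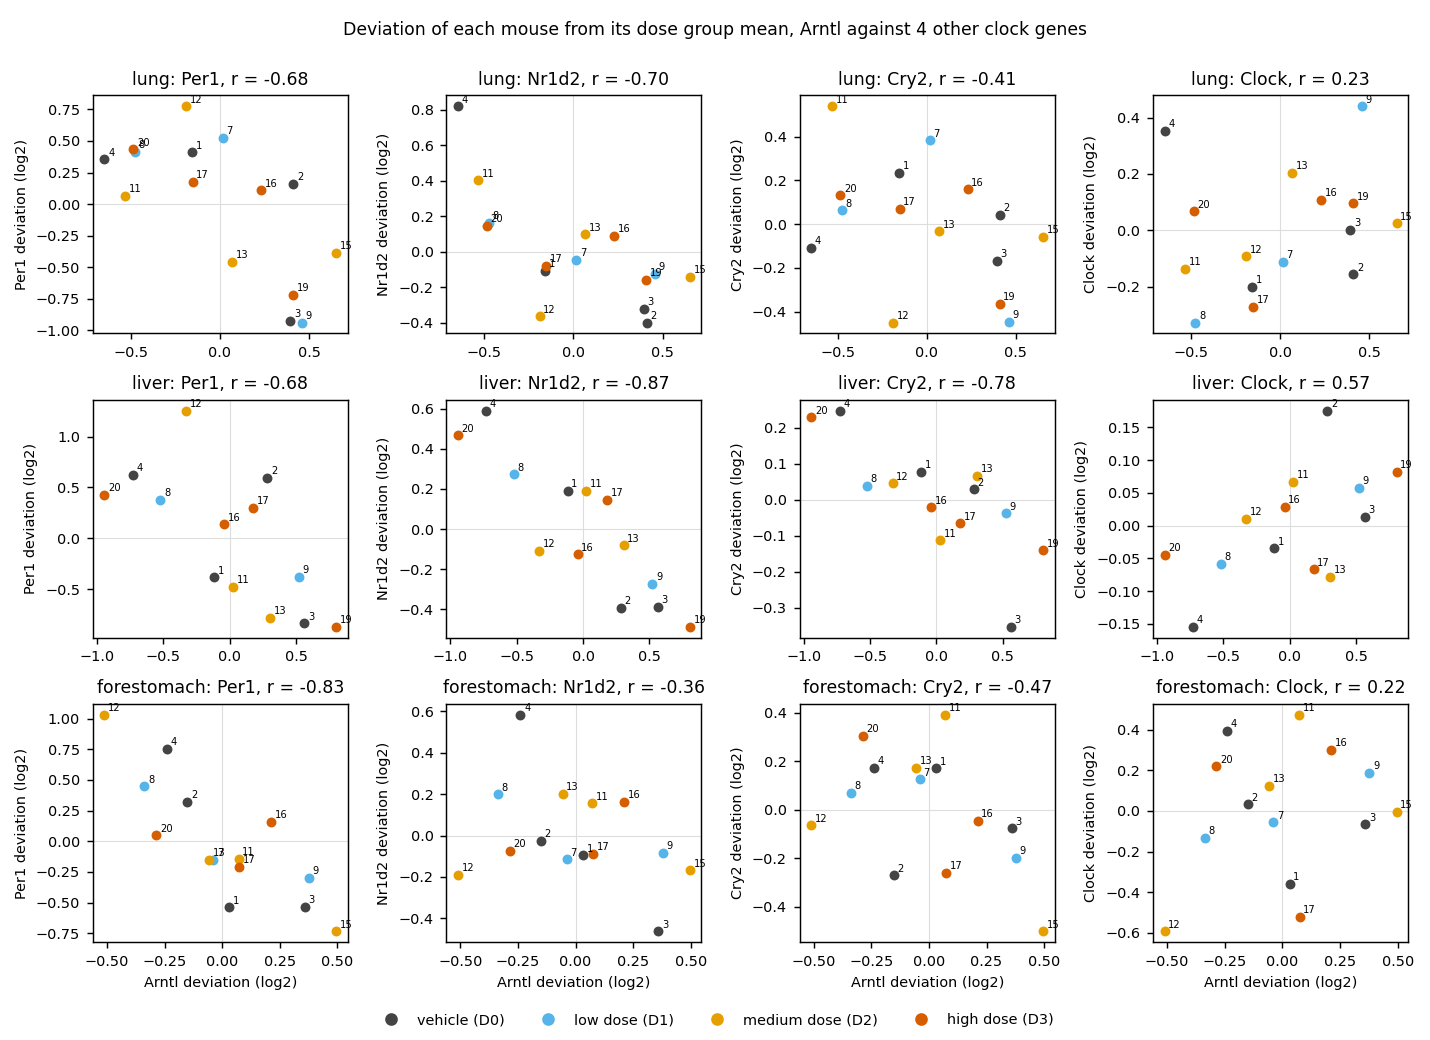
Deviation of each mouse from its dose group mean (log2) for Arntl (horizontal axes) against Per1, Nr1d2, Cry2 and Clock (vertical axes), with a row for each tissue. Points are mice, numbered and coloured by dose group, and the panel titles give Pearson r. The cloud slopes down in the liver panel of Nr1d2 (r = −0.87) and in the forestomach panel of Per1 (r = −0.83).

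Some clock genes tracked between organs of the same mouse, and others did not. Relative to their dose groups, mice 3 and 9 had high Arntl and low Per1 in lung and liver, whereas mice 4, 8 and 20 had low Arntl and high Per1 there. In liver the deviations of mice 8 and 9, the only 2 at D1, mirror each other. Each gene was compared between tissues of the same mouse, 13 mice for lung and liver, 14 for lung and forestomach and 12 for liver and forestomach. Of these 30 relations of deviations from dose group means, 5 passed an adjusted p of 0.05 by exact permutation within dose groups. Between lung and liver they were Arntl (r = 0.87, rho = 0.86, exact permutation p = 0.00347, adjusted p = 0.0391), Per1 (r = 0.83, rho = 0.77, exact permutation p = 0.0042, adjusted p = 0.0391) and Nr1d2 (r = 0.77, rho = 0.81, exact permutation p = 0.00217, adjusted p = 0.0391). Between lung and forestomach it was Nr1d2 (r = 0.85, rho = 0.75, exact permutation p = 0.00786, adjusted p = 0.0472). Between liver and forestomach it was Nr1d1 (r = 0.84, rho = 0.87, exact permutation p = 0.00521, adjusted p = 0.0391).

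Per1 and Arntl between liver and forestomach had r of 0.93 and 0.82 and missed the threshold (adjusted exact permutation p = 0.0653 for both), as did Arntl between lung and forestomach (r = 0.71, adjusted exact permutation p = 0.0653). Among the genes well above background on all arrays, others had r near 0, at −0.13 for Clock and 0.12 for Cry2 between lung and liver and at 0.08 for Clock between liver and forestomach. The 30 relations also held genes near background, Cry1, Npas2 and Per3, for which a low r carries no information. By Spearman's rho 1 of the 5 relations passed, Nr1d2 between lung and liver (adjusted exact permutation p = 0.013). For all probes the median r of the same probe in 2 tissues of a mouse was 0.02 for lung and liver, 0.24 for lung and forestomach and −0.01 for liver and forestomach. An r as high as that of Arntl between lung and liver was found for 0.451% of probes, and as high as that of Per1 between liver and forestomach for 0.0973%. Lung and forestomach of 12 of 14 mice shared a slide, which was the pair with the raised median.

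Each of slides 1 to 4 held 1 or no lung of each dose group. With slide means removed none of the 30 relations passed, and r was 0.65 for Arntl, 0.43 for Per1 and 0.57 for Nr1d2 between lung and liver, 0.70 for Nr1d2 between lung and forestomach and 0.49 for Nr1d1 between liver and forestomach. For Arntl it was then 0.11 between lung and forestomach and 0.73 between liver and forestomach. The part of the slide in the relations cannot be told apart from that of the mice run together on it. Within liver slides 5 and 6, Arntl had r of 0.86 and 0.95 between lung and liver, and Per1 had 0.67 and 0.97. Without the 2 mice farthest from the median, r was 0.79 for Arntl, 0.74 for Per1 and 0.66 for Nr1d2 between lung and liver, 0.69 for Nr1d2 between lung and forestomach and 0.79 for Nr1d1 between liver and forestomach. Without the samples that stood apart in their markers, Arntl between lung and liver was at 0.92 (11 mice), Nr1d2 between lung and forestomach at 0.56 (7 mice) and Nr1d1 between liver and forestomach at 0.66 (6 mice). The forestomachs left out were the 5 low in glandular stomach markers, so those high in them were kept. With 1 mouse left out at a time, the 5 relations passed in 1 of 13, 1 of 13, 3 of 13, 0 of 14 and 0 of 12 repeats, with lowest r of 0.83, 0.79, 0.64, 0.63 and 0.77 in the order given above. Nr1d2 between lung and liver and between lung and forestomach was lowest without mouse 4.

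**Figure D4:**
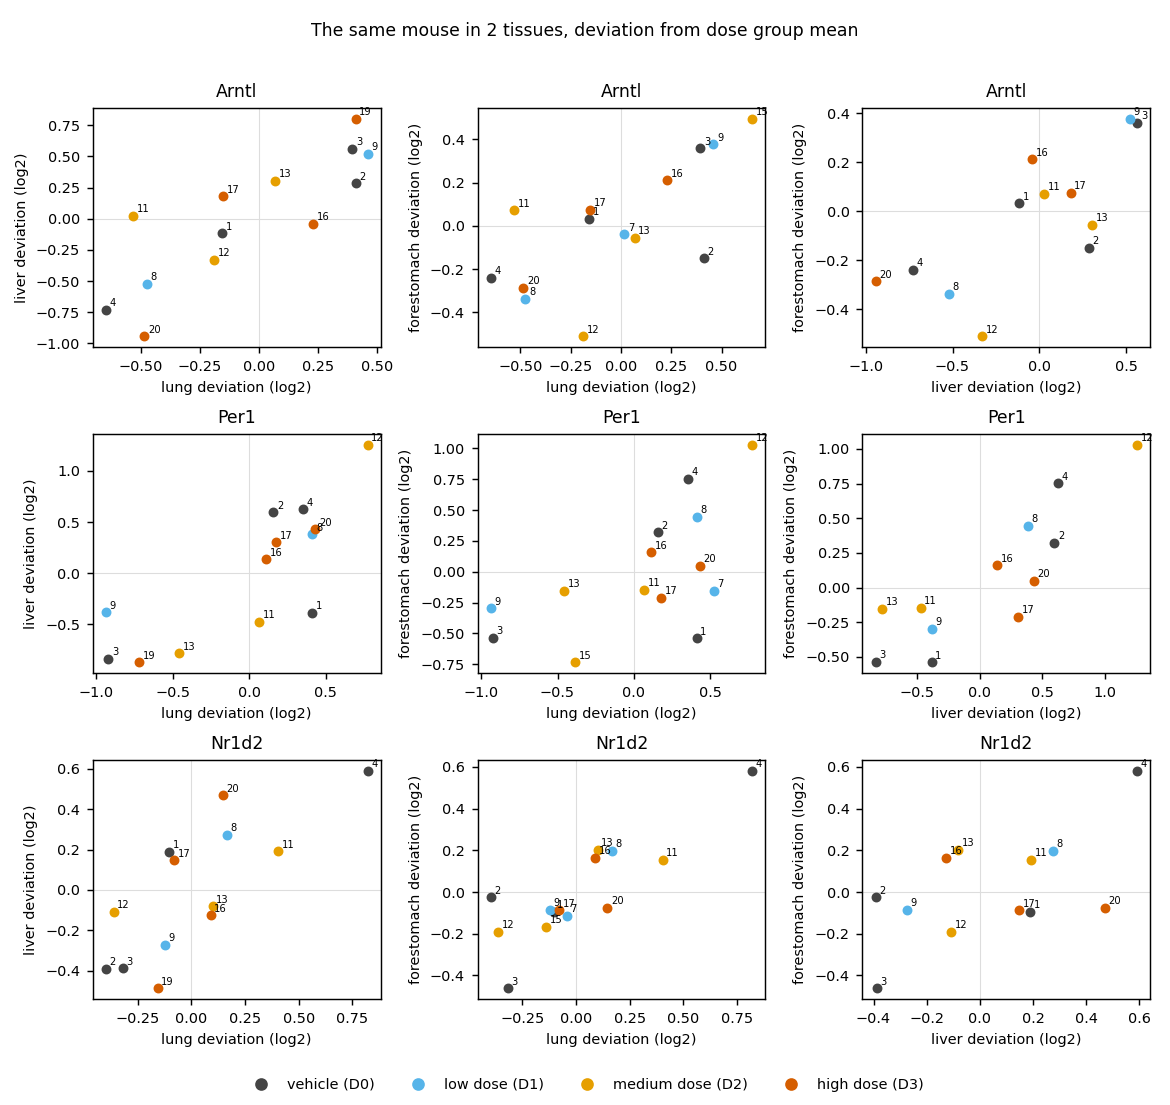
Deviation of each mouse from its dose group mean (log2) in 2 tissues of the same animal for Arntl, Per1 and Nr1d2, with lung against liver, lung against forestomach and liver against forestomach from left to right. Points are mice, numbered and coloured by dose group. Mouse 3 lies high and mouse 4 low in all 3 panels of Arntl, and their places are exchanged for Per1 and Nr1d2.

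A per-mouse difference, the mean of the activators minus the mean of the genes that act against them, placed some animals alike in their tissues and others not. Over kept genes, mouse 3 had the highest difference in lung (0.36), liver (1.07) and forestomach (1.33), and mouse 9 the next in each (0.21, 0.72 and 1.13). Mouse 20 was lowest in liver (−1.06), next to lowest in forestomach (0.11) and at rank 3 from the bottom in lung (−1.1). In contrast, mouse 11 was lowest in lung (−1.23) but at rank 6 of 13 from the bottom in liver and 5 of 14 in forestomach, and mouse 12 was lowest in forestomach (−0.45) and next to lowest in liver (−0.64) but at rank 7 of 15 in lung. The likeness of the orders was not tested. Group means in lung were −0.05 ± 0.30 (SD, n = 4) at D0, −0.53 ± 0.66 (n = 3) at D1, −0.53 ± 0.54 (n = 4) at D2 and −0.82 ± 0.37 (n = 4) at D3. In liver they were 0.50 ± 0.57, 0.39 ± 0.47, −0.15 ± 0.44 and −0.35 ± 0.67, and in forestomach 0.93 ± 0.30, 0.74 ± 0.40, 0.23 ± 0.54 and 0.26 ± 0.18. Since the genes were taken for the loop, the difference is a description and was given no test. The range at D3 in liver, from −1.06 to 0.55, overlapped the vehicle range of −0.29 to 1.07.

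Across 15080 probes that had a gene symbol, were kept in all 3 tissues and had a value on every array, ranked by Pearson r with Arntl over 42 arrays, after dose group means were removed within each tissue, the lowest were the output genes Dbp (−0.78) and Tef (−0.72), then Per1 (−0.71, rank 4) and Nr1d2 (−0.70, rank 5). Rev1, outside the loop, was also among the lowest (−0.60). The genes most like Arntl were Avpr1a, a vasopressin receptor (0.79), Zfp661 (0.76), Wdr47 (0.66) and Fbxw10 (0.66). These correlations describe arrays that share mice across tissues. Dbp had 2 probes, with r of −0.78 each.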

How the data were processed

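Tissue RNA (Cy5) and a common reference RNA (Cy3) were hybridised on 2-colour Agilent arrays without dye swap. The authors deposited scanner output with the median intensity of each channel per spot and, per the file headers, a log10 ratio made by Feature Extraction 10.7.3.1 (lung, forestomach) or 11.0.1.1 (liver). The authors also deposited a table of LOWESS-normalised log2 ratios. Its lung and forestomach columns followed the scanner values (r of 0.995 to 0.999), but its liver columns did not follow them under the table's probe names (r of −0.003 to 0.0003) and were not used.

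The medians were used here without background subtraction, in keeping with the published methods, and log2 ratios were normalised by loess within each array with limma 3.58.1 in R 4.3.3, the files being read by the data.table package (1.17.8). Control spots (3671) and outlier flags were left out of 59305 other spots, and spots of 1 probe were averaged. Of 55681 probes, 26413 (47.4%) had a gene symbol. Probes had to be well above background on as many arrays of a tissue as its smallest dose group holds, which left 32697, 30460 and 25305 probes in lung, liver and forestomach. The number of arrays limits the precision.

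Dose groups were fitted with limma, since the methods' MAANOVA was not installed, with Benjamini-Hochberg adjustment over all kept probes, and the fits were tested on simulated data. Relations between genes and between tissues used deviations from dose group means with exact permutation. Tissues of 1 mouse are paired by animal, and the median correlation of deviations of the same mouse was 0.0706 for lung and liver, 0.153 for lung and forestomach and 0.0293 for liver and forestomach. Named genes were the 10 clock genes, called genes and fixed examples of the lists, and the 4 genes most like and most unlike Arntl, of which 1 is not reported here. The genes and lists were chosen with earlier results of these data known. Alternatives covered background correction, the scanner's ratio, the deposited table, the probe filter, array weights, slide, mouse, marker covariate, shuffled residuals and single arrays left out.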

Additional observations from a re-analysis of the deposited data

Results flagged for a closer look

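In 62 groups of 4 mice checked for a single value far from the other 3, 2 were flagged, and chance flags about 1 in 20 groups. Clock in the D3 lung of mouse 17 was at 0.0859, against 0.425 to 0.465 in the other 3 D3 lungs. Cry2 in the D3 lung of mouse 19 was at 1.67, against 2.11 to 2.20 in the other 3.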

How the results depend on the processing

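No clock gene was called for dose, trend or the tissue difference of the D3 effect under any alternative or with any array left out, shuffled residuals included, except Clock at D1 in forestomach with array weights (1 gene). Between vehicle tissues the number called ranged from 3 to 5 (lung and liver), 3 to 5 (lung and forestomach) and 3 to 4 (liver and forestomach) with single arrays left out, and from 3 to 6 under the other settings. With the mouse as a replicate block it was 5, 4 and 4, and the block changed no other call than Arntl between lung and liver.

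Small D3 differences turned sign. Npas2 in lung was 0.14 with the scanner's ratio. With single arrays left out, Npas2 in lung ran from −0.22 (without D0 mouse 4) to 0.0075 (D3 mouse 20), Per2 in lung from −0.028 (D0 mouse 4) to 0.48 (D0 mouse 2), and the values of Cry1 in lung, which was dim on all D3 arrays and so has no direction, from −0.16 (D0 mouse 1) to 0.058 (D0 mouse 2). In liver Nr1d1 ran from −0.45 (D0 mouse 2) to 0.30 (D0 mouse 4), and was 0.0029 without D3 mouse 17. In forestomach Clock ran from −0.38 (D3 mouse 16) to 0.034 (D3 mouse 17) and Nr1d1 from −0.0098 (D3 mouse 20) to 0.55 (D3 mouse 17).

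The relations depended more on the settings. With 1 mouse left out at a time (chosen after seeing the data), 0 to 1 relations of Arntl passed in each of lung, liver and forestomach, and 0 to 2, 0 to 2 and 0 genes were related between lung and liver, lung and forestomach, and liver and forestomach. Without the samples standing apart in markers, 1, 0 and 0 relations of Arntl passed, and 0 genes were related in each tissue pair. Only 7 and 6 mice were then left for lung and forestomach and for liver and forestomach, where 8 permutations allow no p under 0.125, so no gene could pass there. For lung and liver, 576 permutations allow no p under 0.001736, so 1 gene alone could not pass over 30 relations. There r was 0.92 for Arntl, 0.81 for Per1 and 0.83 for Nr1d2. For Arntl in forestomach, 72 permutations allow no p under 0.0139, so 1 relation alone could not pass over 27. Without the 2 farthest mice, 0 passed in liver and forestomach and 0 in each tissue pair. With slide means also removed, 1 relation of Arntl passed in lung and 0 genes in each tissue pair, and with normexp background correction 1 passed in lung. Between lung and forestomach, 2 genes passed with the scanner's ratio and 0 with the authors' table. With dose group means kept, 4, 6 and 4 relations of Arntl and 5, 3 and 6 genes between tissues passed. The causes were not tested. Since each clock gene had 1 probe, choosing the brightest probe by tissue changed nothing.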
